A study of Mus musculus with 24 samples.

Results

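Serpins are a large family of proteins that share a single fold, in which an exposed loop acts as bait for a serine or cysteine protease and then traps it in an inactive complex. The liver secretes many of them into plasma, where they restrain clotting, fibrinolysis, complement and neutrophil proteases, while some members carry hormones or help proteins fold and inhibit nothing. The family is divided into clades by sequence. Clades A, C, D, F and G hold mostly secreted proteins, clade B intracellular ones, clade H a collagen chaperone and clade I neuroserpin and its relative. Here the family was taken as the genes that met both conditions, a symbol that begins with Serpin, a clade letter from a to i and a number, and a probe set that the annotation used here lists with that gene alone. That gave 40 of 18193 genes, on 56 of 45101 probe sets, and the brightest probe set stood for each gene. After a filter on dim probe sets, 25 members remained among 14086 tested genes, 11 of 14 in clade A, 7 of 18 in clade B, 1 each in clades C, D, G and H, 2 of 2 in clade F and 1 of 2 in clade I. Clade E genes and Serpina3k, Serpina3m and Serpina3g did not meet the condition on probe sets and were not analysed here.

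The arrays measured total RNA from liver tissue of B6C3F1 mice, a hybrid strain used in carcinogenicity bioassays, collected after a bioassay of Ginkgo biloba extract given in corn oil by gavage at 0, 200, 600 or 2000 mg/kg, 5 days a week for 2 years. The 4 groups of 6 arrays were hepatoblastoma (HB), an embryonal-type liver tumour, the adjacent hepatocellular carcinoma (HCC), adjacent liver without tumour (titled BDCA_Normal, here non-tumour liver), and normal liver of vehicle controls (vehicle liver). Per sample, the labels name neither the dose nor the sex or the mouse, so extract treatment and tumour state cannot be told apart in a comparison with vehicle liver, and tissues of 1 mouse may stand in several groups. Nothing in the labels says that arrays of a group came from separate animals, and p-values then measure only the spread between these samples, which may be technical.

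Values are intensities in MAS5 units, and each array's trimmed mean had been set to 500. HCC replicates 3 and 4 were near duplicates and were counted as 1 sample, which left n = 5 for HCC and n = 6 for the other groups in every test, while ranges below cover all 6 arrays. Hepatocyte markers were lower in HB than in vehicle liver, with 11 of 11 tested genes called, against 23.1% of all genes. Their summed intensities ran from 651 to 74832 in HB and from 249458 to 371646 in vehicle liver. HB replicates 4 and 5 stood apart, with albumin (Alb) intensities of 28758 and 15782 against 229 to 1630 in the other HB arrays. Xist, which female cells transcribe from their silenced X, exceeded 1000 in vehicle replicates 1, 2, 4 and 5 and non-tumour replicate 6 alone. Sex may thus differ between vehicle liver and the other 3 groups. Its part in every comparison with vehicle liver was not tested beyond leaving out these 5 arrays. In bulk tissue, fewer cells of a type and less RNA per cell cannot be told apart.

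Differences are given as log2(intensity + 16) in the group named first minus the other, ± the moderated standard error from limma, with p-values adjusted over all 14086 genes and called at 0.05. Against vehicle liver, 17 of 25 members were lower and 3 higher in HB, where 23.1% of all genes were called lower and 37.4% higher. The median difference was -3.79 over the tested members and 0.34 over all genes. In HCC 1 member was lower and 1 higher, against 2.88% and 4.44% of all genes, and in non-tumour liver 1 was lower and 0 higher, against 0.0213% and 0.0781%. The HB and vehicle arrays did not overlap for 15 members lower and 2 higher in HB, where 16.2% and 21.8% of all genes were so separated. In HCC 5 members were wholly below vehicle liver (2.39% of all genes), in non-tumour liver 1 (0.589%), and none was wholly above it in either. These 3 comparisons share the vehicle arrays. Under quantile normalization and median centring of the arrays, the all-gene median in HB moved to -0.00411 and -0.396. Among all genes called, 5272 of 8527 were higher under the deposited scaling, 3966 of 8049 after quantile normalization and 2449 of 7888 after median centring. The members then split into 2 higher and 20 lower under both.

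**Figure D1:**
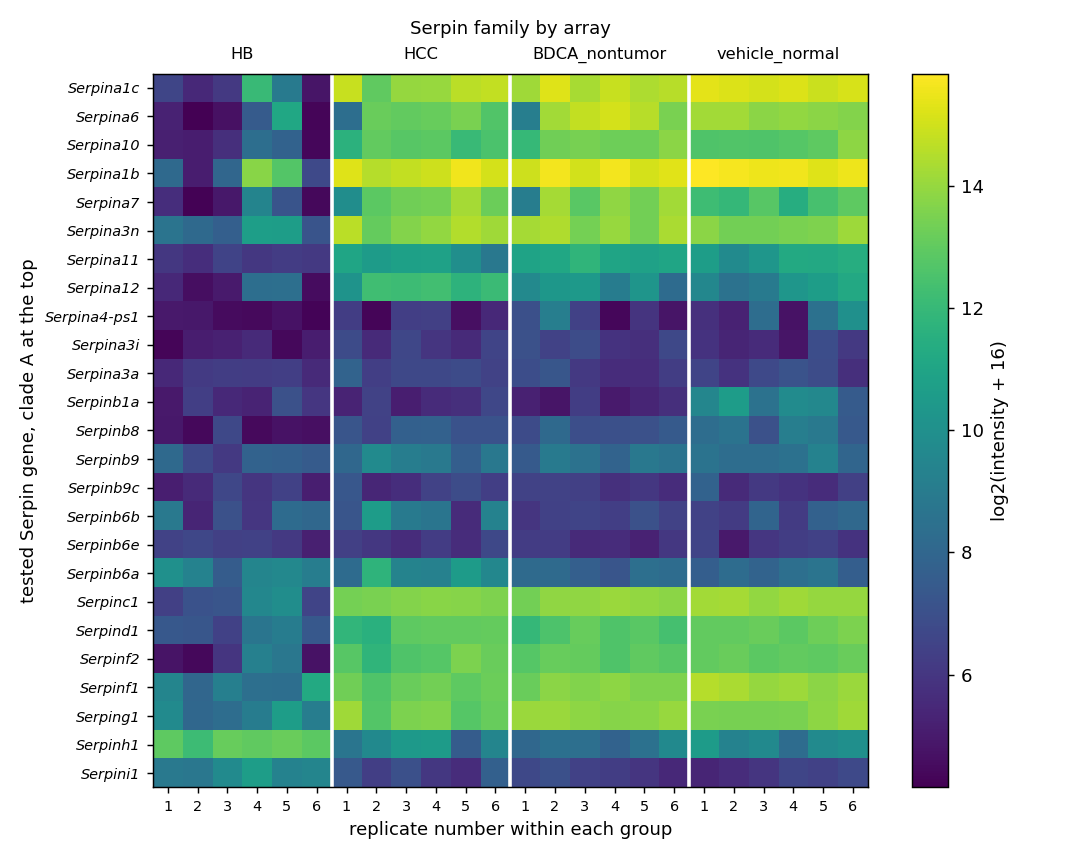
Each cell shows log2(intensity + 16) of 1 of the 25 tested Serpin genes (vertical axis, clade A at the top) in 1 of the 24 arrays (horizontal axis, replicate number within each of the 4 groups). The secreted liver serpins are dim across the HB columns, except in HB replicates 4 and 5 for some genes, while Serpinh1 and Serpini1 are bright there.

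The members that set the pattern in HB are shown first by the 250 bases before their RefSeq start site (build GRCm38.p6, 5′ to 3′ on the gene's strand), for Serpina1b and Serpina1c, which make alpha-1-antitrypsin, for Serpina7 and for the higher members Serpinh1 and Serpini1. They were chosen after their values were seen. Capitals mark GTTAAT, the core of the motif of the hepatocyte factor HNF1, and the TATAAA and CCAAT boxes, each on either strand. In Serpina1b and Serpina1c a CCAAT match on the other strand (ATTGG as printed) shares its last base with GTTAAT and forms 1 run of capitals with it. The Serpinh1 window holds none of these 3 motifs.
Serpina1b (chr12:103738190-103738439, minus strand): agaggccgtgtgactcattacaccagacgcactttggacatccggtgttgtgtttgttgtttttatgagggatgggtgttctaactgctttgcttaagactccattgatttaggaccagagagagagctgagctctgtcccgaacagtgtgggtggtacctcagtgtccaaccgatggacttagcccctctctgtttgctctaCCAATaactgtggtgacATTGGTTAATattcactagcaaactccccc
Serpina1c (chr12:103904951-103905200, minus strand): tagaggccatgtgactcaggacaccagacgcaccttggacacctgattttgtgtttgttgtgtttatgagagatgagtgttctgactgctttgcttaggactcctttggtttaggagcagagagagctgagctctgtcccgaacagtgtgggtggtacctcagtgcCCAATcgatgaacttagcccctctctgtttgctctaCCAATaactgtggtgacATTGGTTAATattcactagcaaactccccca
Serpina7 (chrX:139085220-139085469, minus strand): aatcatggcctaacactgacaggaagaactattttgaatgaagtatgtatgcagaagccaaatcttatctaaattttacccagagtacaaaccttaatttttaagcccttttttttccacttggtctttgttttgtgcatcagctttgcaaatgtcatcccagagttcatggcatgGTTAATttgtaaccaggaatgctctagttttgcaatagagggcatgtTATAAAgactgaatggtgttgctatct
Serpinh1 (chr7:99353240-99353489, minus strand): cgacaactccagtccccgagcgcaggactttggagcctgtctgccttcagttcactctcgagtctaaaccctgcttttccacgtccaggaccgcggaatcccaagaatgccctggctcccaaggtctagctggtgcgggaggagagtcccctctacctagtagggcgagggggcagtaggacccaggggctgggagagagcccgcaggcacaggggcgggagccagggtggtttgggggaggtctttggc
Serpini1 (chr3:75557243-75557492, plus strand): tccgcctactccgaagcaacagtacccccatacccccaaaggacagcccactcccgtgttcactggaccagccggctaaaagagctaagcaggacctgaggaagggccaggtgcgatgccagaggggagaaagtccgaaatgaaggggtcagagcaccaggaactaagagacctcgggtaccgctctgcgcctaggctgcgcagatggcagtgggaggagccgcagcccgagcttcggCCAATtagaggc

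GTTAAT began 26 bases before the start site in Serpina1b, 27 in Serpina1c and 74 in Serpina7. Over the 5 Serpina1 genes with a listed promoter, the 10 pairwise identities ran from 58.8% to 91.4%, and Serpina1b and Serpina1c shared 90.9%. Promoters were listed for 34 of the 40 genes. Searched on both strands, GTTAAT was found in 4 of the 12 members lower in HB that had a promoter (Serpina1b, Serpina1c, Serpina7 and Serpinb8) and in 6.43% of all 32851 upstream windows of the same length. CCAAT occurred in 5 of those 12 and in 33.8% of all windows, and TATAAA in 1 and 12.4%. The letters CAAAGTCCA (an HNF4 site) were in none of the 34 family genes with a promoter and 0.384% of all windows, and the heat shock element in none and 0.466%. CTTTGAT (a TCF/LEF site) was in 2 of the 12 and 3.21% of all. GTTAAT was in 5 of the 34 family genes with a promoter. A gene counted if any of its windows held the motif, while the shares over all are per window, so the rates are not alike. None of these motifs contains another, and matches may overlap at their ends. A match is a description of letters in the window.

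The secreted members come first. Clade A lies mostly together, with 13 of its 14 genes on chromosome 12 between 103616675 and 104414334, and Serpina7 on the X chromosome. In HB, 9 of its 11 tested genes were lower than in vehicle liver and none higher, against 23.1% and 37.4% of all genes. Serpina1c showed lowest, median and highest intensities of 12.4, 67.1 and 4219.8 in HB, 8038, 20898 and 29194 in HCC, 18482, 22716 and 39566 in non-tumour liver and 30314, 37415 and 41677 in vehicle liver. Every HB array was below every array of the other groups, and the highest HB array was replicate 4. The difference from vehicle liver was -7.83 ± 0.73, a 227-fold lower level on the log2(intensity + 16) scale (limma, adjusted p = 1.25e-09). Where HB intensities lie near the added 16, as for several members below, such a fold depends on that number. Its HCC arrays were also all below the vehicle arrays, at -0.92 ± 0.77, which did not pass the test (adjusted p = 0.524).

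Serpina1b had 18, 257 and 13690.4 in HB, 23333, 33350.3 and 49419 in HCC, 31134, 37568 and 50060.4 in non-tumour liver and 39025, 47869 and 58372 in vehicle liver. HB again lay below all other arrays, at -6.48 ± 0.89 from vehicle liver (limma, adjusted p = 8.48e-07), and without HB replicates 4 and 5 the difference was -8.56. Its probe set is of the kind that can bind near-identical transcripts, and the 5 Serpina1 genes are such copies, so the level of a single copy is uncertain. Probe sets that the annotation assigns to several Serpina1 genes had the same order. The set for Serpina1d or Serpina1a ranged from 0.445 to 5675 in HB and from 25429.7 to 28161 in vehicle liver.

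Serpina6 encodes corticosteroid-binding globulin, the plasma carrier of glucocorticoids. Its intensities were 1.81, 16.1 and 2222 in HB, 315, 8644 and 11601 in HCC, 556, 21843 and 34215 in non-tumour liver and 12920.1, 15045 and 18817 in vehicle liver. HB did not overlap vehicle liver (-7.76 ± 1.03, limma, adjusted p = 4.95e-07) but overlapped HCC and non-tumour liver through the low replicate 1 of each. HCC lay below vehicle liver in all arrays without passing the test (-1.77 ± 1.08, adjusted p = 0.354). Serpina7, the thyroxine-binding globulin, was low in the same pair, at 921 in HCC replicate 1 and 541 in non-tumour replicate 1, against medians of 9709 and 12734. It is singled out after its values were seen.

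Serpina10, the protein Z-dependent inhibitor of activated clotting factor X, had 4.79, 28.6 and 313 in HB, 3244, 6568 and 8344 in HCC, 3982, 9949 and 14257 in non-tumour liver and 6250.4, 6706 and 14753 in vehicle liver. All HB arrays were far below the rest (-6.82 ± 0.49 from vehicle liver, limma, adjusted p = 1.04e-11), and the other 3 groups overlapped each other. The 5 further clade A members lower in HB were Serpina3n, Serpina7, Serpina11, Serpina12 and the pseudogene Serpina4-ps1, with differences from -2.47 to -6.31. Of these only Serpina4-ps1 overlapped vehicle liver. Serpina3a and Serpina3i did not pass the test at -0.47 ± 0.35 and -0.82 ± 0.36 (limma, adjusted p = 0.253 and 0.0539). Under some alternatives Serpina3i did pass, as after quantile normalization and median centring, at -1.23 and -1.56 (limma, adjusted p = 0.00389 and 0.00055).

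**Figure D2:**
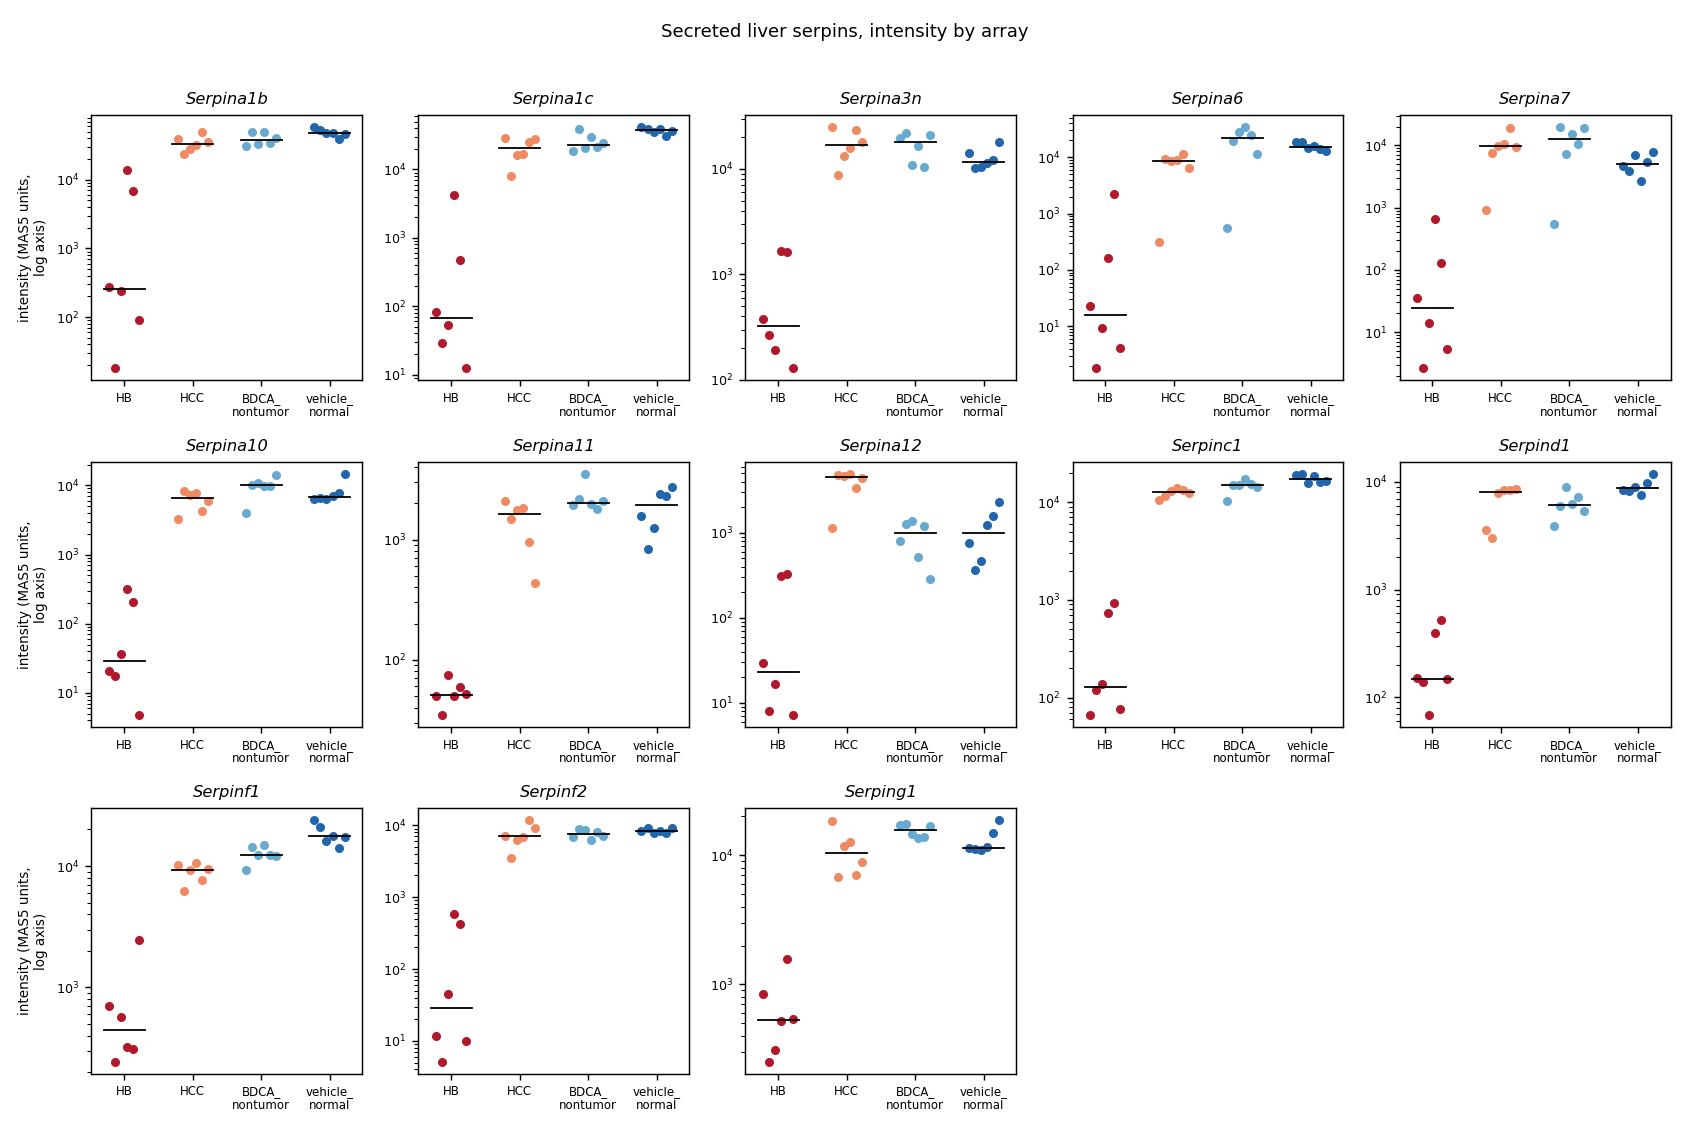
Each panel plots the intensity (MAS5 units, log axis) of 1 secreted liver serpin in every array, 1 point per array and 1 column per group. The HB medians are the lowest in every panel, with HB replicates 4 and 5 often the upper pair, and single low points stand out in HCC and non-tumour liver for Serpina6 and Serpina7.

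The clotting and fibrinolysis inhibitors of clades C, D and F moved the same way in HB. Antithrombin, the product of Serpinc1 and the main inhibitor of thrombin, had intensities of 66.6, 128 and 927 in HB, 10627, 12665 and 13903 in HCC, 10257, 15068 and 17298 in non-tumour liver and 15848, 17411 and 19598 in vehicle liver. The HB arrays were all lower than any other array (-6.31 ± 0.42 from vehicle liver, limma, adjusted p = 2e-12). HCC arrays were all below vehicle liver as well, by 0.52 ± 0.44, without passing the test (adjusted p = 0.534). Heparin cofactor II, from Serpind1, another thrombin inhibitor, had 68.4, 148 and 520.3 in HB, 3007, 8140.1 and 8546 in HCC, 3862, 6098 and 8911 in non-tumour liver and 7481, 8738 and 11938 in vehicle liver. Again HB alone was separate, at -5.45 ± 0.35 (limma, adjusted p = 1.04e-12).

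Alpha-2-antiplasmin, from Serpinf2, inhibits plasmin and so slows the dissolving of clots. It had 5.15, 28.5 and 587 in HB, 3495, 7039.9 and 11729.8 in HCC, 6169, 7559 and 8829 in non-tumour liver and 7696, 8316 and 9061 in vehicle liver. HB was separate from all other arrays (-6.72 ± 0.59, limma, adjusted p = 3.8e-10), and the other 3 groups overlapped. Its neighbour on chromosome 11, Serpinf1, makes pigment epithelium-derived factor, a secreted member that restrains vessel growth and does not inhibit proteases. Serpinf1 had 246, 447 and 2439 in HB, 6249.8, 9353 and 10488 in HCC, 9212, 12391 and 14955 in non-tumour liver and 14151, 17544 and 23789 in vehicle liver. Both tumour groups lay below vehicle liver in every array. The difference was -5.02 ± 0.34 in HB (limma, adjusted p = 3.14e-12) and -1.08 ± 0.36 in HCC, which did not pass the test (adjusted p = 0.0633). A further probe set of Serpinf1 gave -1.40 ± 0.29 in HCC and passed it (limma, adjusted p = 0.00425 over all kept probe sets). The first set also passed on leaving out HB replicate 2 or 6, both of which enter only the shared variance (adjusted p = 0.0466 and 0.00463). Non-tumour liver overlapped vehicle liver at -0.54 ± 0.34 (adjusted p = 0.619).

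Serping1 of clade G encodes the C1 inhibitor, which restrains complement and the contact system. Intensities were 252, 529.9 and 1573 in HB, 6757, 10344 and 18398 in HCC, 13592, 15727 and 17369 in non-tumour liver and 10968, 11477 and 18684 in vehicle liver. HB was the separate group (-4.49 ± 0.31, limma, adjusted p = 4.45e-12), while the other 3 overlapped.

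The list of hepatocyte plasma serpins held 17 genes, of which 12 were named and tested here. All of those 12 were lower in HB, with a median of -6.31, where 23.1% of all genes were called lower. None was called in HCC or non-tumour liver, where the medians were -0.51 and -0.21. Their summed intensities ran from 1131 to 23313 in HB, 97788 to 181923 in HCC, 123647 to 224142 in non-tumour liver and 173665 to 216310 in vehicle liver. HB replicates 4 and 5 were the highest HB arrays for 10 of the 17 members lower in HB, and the part of their hepatocyte transcripts in these levels was not tested. Serpinf1 differed from that order, with 2439 in HB replicate 6 and 324 and 314 in replicates 4 and 5. Without replicates 4 and 5 the count of lower members was again 17, and Serpina1c stood at -9.40.

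**Figure D3:**
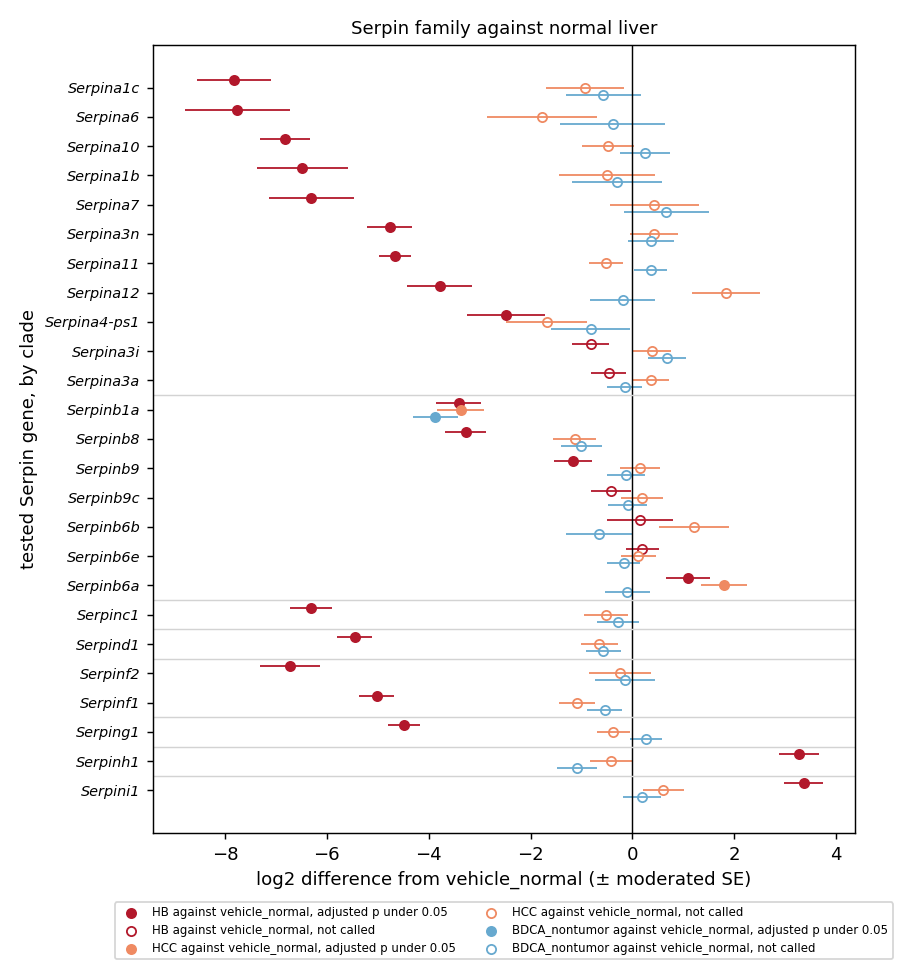
Points show the log2 difference from vehicle liver (horizontal axis, bars ± the moderated standard error) for each tested Serpin gene (vertical axis, by clade) in HB, HCC and non-tumour liver, and filled points passed an adjusted p of 0.05. HB points reach from -7.83 to 3.36, while the HCC and non-tumour points lie between -3.87 and 1.84.

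Only Serpinh1, Serpini1 and Serpinb6a passed the test as higher in HB against vehicle liver. Serpinh1 is the procollagen chaperone of the endoplasmic reticulum and inhibits no protease. It had intensities of 4583, 7875 and 9158 in HB, 174, 753 and 1489.8 in HCC, 213, 335 and 802 in non-tumour liver and 300.3, 825 and 1489 in vehicle liver. Every HB array was above every other array, by 3.28 ± 0.39 over vehicle liver (limma, adjusted p = 9.12e-08) and 3.69 ± 0.41 over HCC (adjusted p = 4.26e-08). A further probe set gave 4.14 ± 0.44. HCC and non-tumour liver did not pass the test against vehicle liver, at -0.41 ± 0.41 and -1.10 ± 0.39 (adjusted p = 0.613 and 0.295).

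Among its client collagens, Col1a1 differed in HB by 1.56 ± 0.68 and did not pass the test (limma, adjusted p = 0.0503), and Col3a1 was lower at -1.82 ± 0.46 (adjusted p = 0.00154). Col1a2 had intensities of 209, 281 and 639 in HB and 306, 570 and 884 in vehicle liver. All these collagens were singled out after their values were seen. Of 10 stellate and fibroblast markers, 5 were lower in HB and none higher, against 23.1% and 37.4% of all genes. Their summed intensities were 2468 to 28068 in HB and 14435 to 19819.9 in vehicle liver. Biliary and progenitor markers were higher in HB than in vehicle liver for 5 of 5 tested genes, against 37.4% of all genes. Their median log2 difference was 2.31. Their summed intensities ran from 11992 to 16815 in HB, 944 to 8362 in HCC, 819 to 3831 in non-tumour liver and 403 to 1749 in vehicle liver, so that HB did not overlap the other groups, as for Serpinh1 and Serpini1. The part of biliary or progenitor cells in the levels of both genes was not tested. P4ha2, a subunit of the enzyme that hydroxylates procollagen, was higher by 4.33 ± 0.47 (limma, adjusted p = 1.71e-08).

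Serpini1 encodes neuroserpin, a secreted inhibitor of tissue plasminogen activator best known from neurons. It had 429, 660 and 1605 in HB, 33.5, 88.3 and 199 in HCC, 29.7, 66.1 and 113 in non-tumour liver and 24.8, 57.9 and 91.7 in vehicle liver. HB was above all other arrays, by 3.36 ± 0.38 over vehicle liver (limma, adjusted p = 3.54e-08). A further probe set gave 3.87 ± 0.37. Another set, below the filter value of 66.3 in every array, gave 0.53. HB also exceeded HCC by 2.75 ± 0.40 (adjusted p = 2.72e-06). Its target protease Plat had 786, 2246 and 5661 in HB, 97.7, 1899 and 5096 in HCC, 3.37, 32.5 and 418 in non-tumour liver and 2.49, 12.1 and 64.9 in vehicle liver. Both tumour groups were above vehicle liver in every array, by 6.07 ± 0.74 in HB and 5.01 ± 0.78 in HCC (limma, adjusted p = 1.33e-07 and 0.00028).

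Clade B serpins act inside cells. Of its 7 tested members in HB, 3 were lower and 1 higher than in vehicle liver, against 23.1% and 37.4% of all genes. Of its 18 members, 11 were too dim to test. Serpinb1a, an inhibitor of neutrophil serine proteases, was the single member called in non-tumour liver. It passed the filter on dim probe sets only through the vehicle arrays. Of the other arrays, only HB replicate 5 and HCC replicates 2 and 6 exceeded the filter value of 66.3. The calls of Serpinb1a against vehicle liver are thus not independent of that filter. Its intensities in vehicle liver were 707, 1568, 366, 861, 771 and 166 in replicates 1 to 6. The lowest, median and highest were 15.4, 38.7 and 115 in HB, 18.8, 34.6 and 83.5 in HCC and 12.2, 23.1 and 61.8 in non-tumour liver. Vehicle liver was thus above all 18 arrays of the other groups by this probe set. The differences from it were -3.41 ± 0.44 in HB, -3.37 ± 0.46 in HCC and -3.87 ± 0.44 in non-tumour liver (limma, adjusted p = 2.9e-07, 7.93e-05 and 4.72e-05).

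A further probe set of Serpinb1a gave -3.42 ± 0.41, -2.83 ± 0.43 and -2.18 ± 0.41 (limma, adjusted p = 9.56e-08, 0.000226 and 0.0238 over all kept probe sets). By that set HCC replicate 4, at 129.5, was above vehicle replicate 6, at 114, so vehicle liver was not wholly separate. For the brighter set, HB, HCC and non-tumour liver did not differ past the threshold from each other, while the further set was lower in HB than in non-tumour liver (-1.24 ± 0.41, limma, adjusted p = 0.0132). Vehicle replicates 1, 2, 4 and 5, which had Xist signal, were the highest for Serpinb1a, and replicates 3 and 6, without it, had 366 and 166. Non-tumour replicate 6, the other array with Xist signal, had 36.3. Without those 5 arrays, which leaves 2 vehicle arrays, the difference was -2.19 in HB, which passed the test, and -2.15 in HCC and -2.70 in non-tumour liver, which did not (limma, adjusted p = 0.00327, 0.0679 and 0.0811). Summed granulocyte and mast cell markers ran from 1228 to 7663 in vehicle liver and 451 to 7048 in non-tumour liver. Summed lymphocyte markers ran from 1573 to 7467 and 673 to 3735, and macrophage markers from 10981 to 41535 and 15819 to 27973. Their part and that of sex in the Serpinb1a difference was not tested.

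Serpinb8, which inhibits the protease furin, had 5.03, 9.8 and 86.9 in HB, 68.4, 127 and 206 in HCC, 95.8, 115 and 269.6 in non-tumour liver and 115, 340.5 and 559 in vehicle liver. HB was below vehicle liver in all arrays (-3.27 ± 0.40, limma, adjusted p = 1.47e-07), and HB replicate 3 alone reached the HCC range. A further probe set gave a smaller difference of -1.53 ± 0.39 (adjusted p = 0.00164). Serpinb9, the inhibitor of granzyme B that shields cells from cytotoxic lymphocytes, had 52.2, 182 and 269 in HB, 185, 446 and 847 in HCC, 159, 369.5 and 478 in non-tumour liver and 231, 327 and 638 in vehicle liver. HB overlapped vehicle liver but was lower (-1.17 ± 0.37, limma, adjusted p = 0.00936). A further probe set gave -1.07 ± 0.52 and did not pass (adjusted p = 0.0784). The difference from vehicle liver was lost on dropping the 5 Xist-bearing arrays (-0.78, adjusted p = 0.269). Serpinb9 was also lower in HB than in non-tumour liver (-1.04 ± 0.37, adjusted p = 0.0202), a call lost without HB replicate 3 (-0.79, adjusted p = 0.0692). Macrophage markers, which fell in HB for 10 of 10 genes against 23.1% of all genes, summed to 1069 to 4538 there. Their part in these levels was not tested.

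Serpinb6a, an intracellular inhibitor of trypsin-like proteases and cathepsin G, had 173, 656 and 1028 in HB, 289, 689.7 and 3398 in HCC, 133, 275 and 325 in non-tumour liver and 185, 256 and 388 in vehicle liver. Both tumour groups overlapped vehicle liver, through HB replicate 3 and HCC replicate 1. Tumour levels were higher by 1.09 ± 0.43 in HB and 1.80 ± 0.46 in HCC (limma, adjusted p = 0.0328 and 0.0165), and HCC exceeded non-tumour liver by 1.89 ± 0.46 (adjusted p = 0.0272). The call in HB was lost after quantile normalization or median centring, at 0.58 and 0.35 (adjusted p = 0.296 and 0.552), and on leaving out any of HB replicates 1, 2, 4 and 5 or vehicle replicates 1, 3 and 6, at 0.92 to 1.06. That in HCC was lost without HCC replicate 2, the highest array, at 1.33 (adjusted p = 0.0571), and without HCC replicate 5, at 1.63 (adjusted p = 0.0516), and under median centring, at 1.64 (adjusted p = 0.0539). The difference of HCC from non-tumour liver missed the threshold without any of HCC replicates 2, 5 and 6 or non-tumour replicates 3 and 4, at 1.43 to 1.98, and after quantile normalization or median centring, at 1.81 and 1.84. HB exceeded non-tumour liver by 1.19 ± 0.43 (adjusted p = 0.0225), a call lost without HB replicate 1 or non-tumour replicate 4 and after quantile normalization or median centring, at 1.02, 1.03, 0.74 and 0.55. Without the 5 arrays with Xist signal, Serpinb6a missed the threshold in HB and HCC against vehicle liver, at 1.42 and 2.13 (limma, adjusted p = 0.0877 and 0.143). HCC against non-tumour liver also missed it there, at 1.95 (adjusted p = 0.0688). Without HB replicates 4 and 5 together, HB lost the call against vehicle and non-tumour liver, at 0.91 and 1.01 (adjusted p = 0.118 and 0.089). Serpinb6b, Serpinb6e and Serpinb9c were not called in any of the 6 comparisons.

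**Figure D4:**
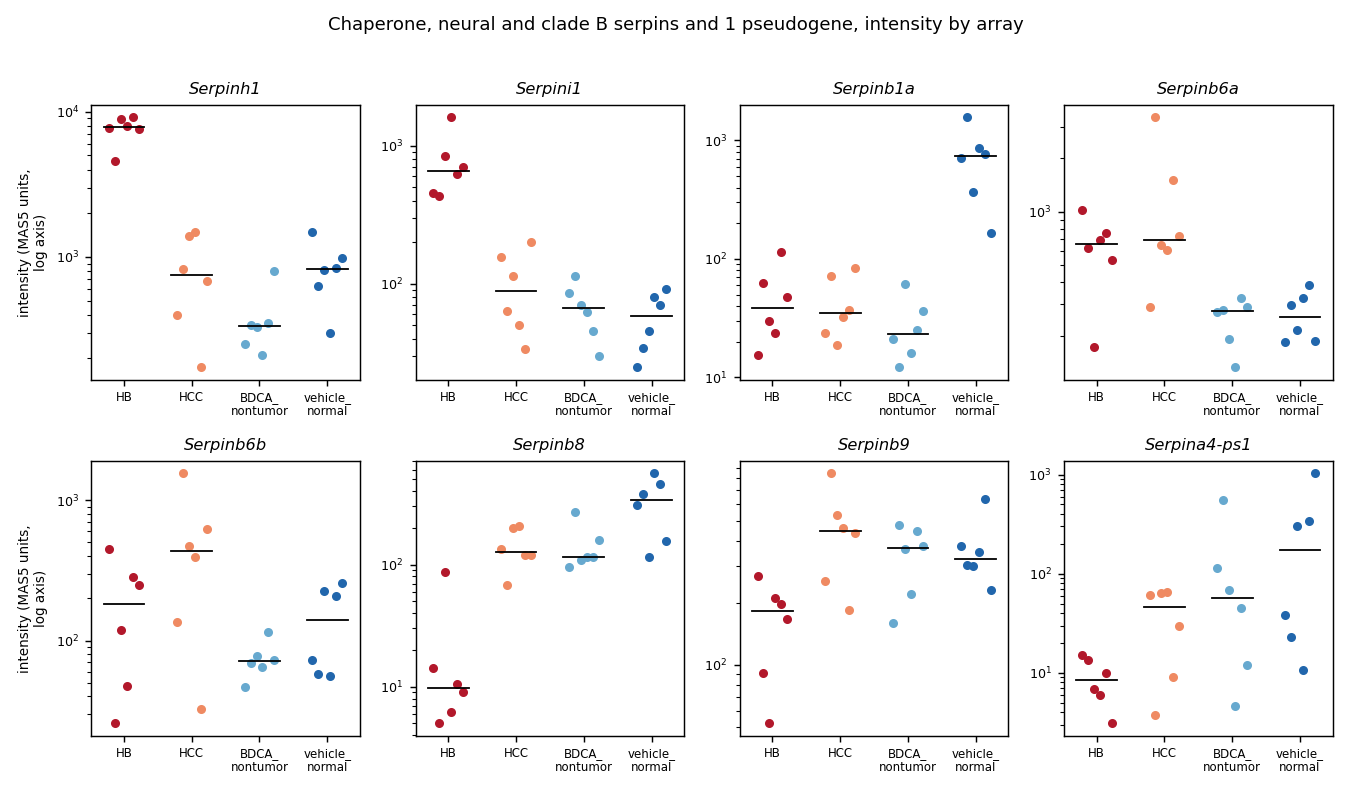
Each panel plots the intensity (MAS5 units, log axis) of 1 gene in every array, 1 point per array and 1 column per group, for Serpinh1, Serpini1, 5 clade B genes and the pseudogene Serpina4-ps1. HB lies above the other groups for Serpinh1 and Serpini1, and vehicle liver lies above the other 3 groups for Serpinb1a.

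The comparison of both tumour types asks how HB differs from the carcinoma beside it. HB had 16 members lower and 2 higher than HCC, against 21.7% and 29.2% of all genes. Serpinh1 and Serpini1 were the higher members. Serpinb8 and Serpinb9 were among the lower ones by their brightest probe sets. Their further probe sets did not pass, at -0.34 ± 0.41 and -0.59 ± 0.55 (limma, adjusted p = 0.516 and 0.375 over all kept probe sets). The 9 clade A genes lower than in HCC included Serpina12, or vaspin, which differed by -5.62 ± 0.66 (limma, adjusted p = 1.11e-07). It is given because its order across groups differed from the other liver serpins, as seen in its values. Its intensities were 7.17, 22.9 and 331 in HB, 1139, 4535 and 4968 in HCC, 288, 999 and 1391 in non-tumour liver and 363, 990.1 and 2309 in vehicle liver. All HCC arrays but replicate 1 lay above every other array. The difference of HCC from vehicle liver was 1.84 ± 0.66 and did not pass the test (limma, adjusted p = 0.0913), while a further, dimmer probe set gave 2.35 ± 0.60 and passed it (adjusted p = 0.0178). Without HCC replicate 1 the brighter set passed as well, at 2.22 (adjusted p = 0.0434). That second set did not pass it for HB against vehicle liver (-1.08 ± 0.57, adjusted p = 0.103).

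Against non-tumour liver, HB had 16 members lower and 3 higher, where 22.4% and 34.3% of all genes were called. Serpinc1 differed by -6.04 ± 0.42, Serpind1 by -4.88 ± 0.35, Serpinh1 by 4.37 ± 0.39 and Serpini1 by 3.17 ± 0.38 (limma, adjusted p = 5.02e-12, 8.87e-12, 6.31e-10 and 1e-07). Against both of these groups Serpina3i was also lower, by 1.20 ± 0.38 and 1.50 ± 0.36 (adjusted p = 0.0109 and 0.00106). For HB against non-tumour liver, the further probe sets of Serpina12, Serpinb8 and Serpinb9 did not pass. They gave -0.91 ± 0.57, -0.90 ± 0.39 and -0.97 ± 0.52 (limma, adjusted p = 0.178, 0.0551 and 0.115 over all kept probe sets). By the brightest probe sets, HCC differed from non-tumour liver for Serpinb6a alone, where 1.32% of all genes were higher and 0.511% lower. The further probe set of Serpina12 also passed there, at 2.52 ± 0.60 (limma, adjusted p = 0.0288 over all kept probe sets), while its brighter set did not, at 2.03 ± 0.66 (adjusted p = 0.121). The HB comparisons share the HB arrays.

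The proteases that serpins act on, and their cofactors, were followed as a list of 35 genes, 30 of them tested. In HB 22 were lower and 3 higher, where 23.1% and 37.4% of all genes were called. In HCC 1 was lower and 2 higher, against 2.88% and 4.44% of all genes, and in non-tumour liver none was called. The median in HB was -4.01. Plg, the precursor of plasmin and target of Serpinf2, differed by -7.99 ± 0.56, and F2, the prothrombin gene, by -6.89 ± 0.67 (limma, adjusted p = 5.78e-12 and 2.41e-09). Proc (protein C), Vtn (vitronectin) and F9 (clotting factor IX) differed by -7.71 ± 0.63, -7.29 ± 0.69 and -7.26 ± 0.47. Neither Plg nor F2 passed the test in HCC, at -0.67 ± 0.59 and -0.18 ± 0.70. Plau, the urokinase gene, differed by -0.10 ± 0.59 in HB and 0.30 ± 0.62 in HCC and was not called in either (adjusted p = 0.892 and 0.829). The higher genes in HB were Plat, St14 and Plaur, and in HCC Plat and Plaur, with Klkb1 lower there. St14, Plaur and Klkb1 are named after their values were seen. Elane, the neutrophil elastase gene and a target of Serpinb1a, was too dim to test, with 1.9, 26.7 and 98.9 in vehicle liver and 6.33, 40.3 and 322 in non-tumour liver.

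Secreted inhibitors of other families were read from a list of 33 genes, 27 of them tested, for comparison with the serpins. In HB 15 were lower and 5 higher, with a median of -2.16, where 23.1% and 37.4% of all genes were called. Hrg, Itih4, Mug1 and Ambp, all plasma proteins of hepatocytes, differed by -8.10 ± 0.60, -7.59 ± 0.75, -7.48 ± 0.60 and -7.10 ± 0.76 (limma, adjusted p = 1.57e-11, 3.4e-09, 8.27e-11 and 1.31e-08). The 5 higher genes, named after their values were seen, were Spink4, Timp1, Timp2, Reck and Tfpi. In HCC 3 were higher and 2 lower, against 4.44% and 2.88% of all genes. Slpi, an epithelial inhibitor of neutrophil elastase, had 1031, 6569 and 11701 in HCC, 8.4, 120.1 and 589 in HB, 21.4, 319.6 and 912 in non-tumour liver and 71.2, 142 and 316 in vehicle liver. All HCC arrays were above vehicle and non-tumour liver, by 4.91 ± 0.75 over the former (limma, adjusted p = 0.000225), while HB differed by -0.40 ± 0.71 and did not pass the test (adjusted p = 0.646).

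Receptors that clear serpin complexes and partners of their secretion made a list of 22 genes, 19 of them tested. In HB 12 were lower and 3 higher, with a median of -1.06, where 23.1% and 37.4% of all genes were called. None was called in HCC or non-tumour liver. The largest differences were those of Asgr2 and Asgr1, liver receptors for circulating glycoproteins, and of Stab2, which was listed here as an endothelial marker too. They stood at -7.23 ± 0.39, -6.76 ± 0.52 and -4.73 ± 0.30 (limma, adjusted p = 5.08e-14, 3.75e-11 and 7.14e-13). The 3 higher genes were P4ha2 and, named after their values were seen, the receptors Vldlr and Lrp8.

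The 15 untested members were Serpina1f, Serpina5, Serpina9, Serpini2 and 11 clade B genes. Their medians over all arrays ran from 1.37 to 38.4, below the filter value of 66.3, and their highest single value was 179, for Serpinb12 in non-tumour replicate 6. Serpinb9b exceeded the filter value in 5 arrays, and no other untested member did in more than 3.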

How the data were processed

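The deposited values were intensities on a linear scale, 1 per probe set and array, which the authors made with MAS5, per the submitters' processing notes (version and genome build are not given in the sources used here). On the values, each array's 2% trimmed mean was 500 and array medians ran from 75.8 to 202. Array number limits the precision.

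Of 45101 probe sets, 34945 were listed with 1 gene, 932 with several, 9160 with none and 64 were controls. Probe sets whose 6th highest value exceeded the 40th percentile of all values (66.3) were kept (32762), and the brightest per gene was tested. Annotation symbols can be old. HCC replicates 3 and 4 differed by a scaled median absolute deviation of 0.18 (log2, over 4730 bright probe sets), against 0.32 to 0.76 in the other within-group pairs, and were averaged on the log2 scale, giving 23 samples. On log2(intensity + 16), 1 mean per group was fitted with limma 3.58.1 (R 4.3.3, trended variance), with 6 pairwise comparisons and Benjamini-Hochberg adjustment over 14086 genes. The fit was tested on simulated data.

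Members named with full values were, per clade and direction, at most 4 by size among those called in HB or HCC against vehicle liver, and any called in non-tumour liver. Gene lists named at most 4 genes by size in HB plus Plat, Plau, Plg, F2, Elane, Slpi and Itih4. Members and lists were chosen with earlier results of these data known. Promoter sequences and positions are RefSeq's (GRCm38.p6). Alternatives changed the pseudocount, scaling, filter, probe set rule, variance trend, samples fitted and replicates. A further 3, chosen after seeing the data, left out HB replicates 4 and 5, the 5 arrays with Xist signal, or HCC 1 and non-tumour 1.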

Additional observations from a re-analysis of the deposited data

Results flagged for a closer look

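In 100 groups of 5 or 6 values of the tested members, 13 had a sample whose gap to the nearest other exceeded Dixon's critical value on the log2 scale, and chance flags about 1 in 20. Non-tumour replicate 1 was low in 4 genes: Serpina6 at 556 (others 11418 to 34215), Serpina7 at 541 (others 7328 to 19785), Serpina10 at 3982 (others 9669 to 14257) and Serpinc1 at 10257 (others 14286 to 17298). HCC replicate 1 was low for Serpina6 at 315 (others 6534 to 11601) and Serpina12 at 1139 (others 3338 to 4800, with HCC 3 and 4 as 1 sample).

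Within HB, replicate 3 was low for Serpinb6a at 173 (others 535 to 1028) and high for Serpinb8 at 86.9 (others 5.03 to 14.3). Replicate 6 was low for Serpinb6e at 20.6 (others 52.8 to 83.7), and replicate 2 for Serpinh1 at 4583 (others 7651 to 9158). Serpina11 was high in non-tumour replicate 3 at 3539 (others 1803 to 2163). In vehicle liver, Serpina10 was high in replicate 6 at 14753 (others 6250.4 to 7772) and Serpinb9c in replicate 1 at 211 (others 31.0 to 65.6).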

How the results depend on the processing

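Of 61 called differences followed through 38 alternatives, 2277 of 2312 values kept their direction and passed the threshold. By that count 52 differences did so under every alternative that tested them, and the stricter filter left some untested. None of the followed values reversed. Main counts of higher and lower members were 3 and 17 in HB against vehicle liver, 1 and 1 in HCC against vehicle liver, 0 and 1 in non-tumour against vehicle liver, 2 and 16 in HB against HCC, 3 and 16 in HB against non-tumour liver, and 1 and 0 in HCC against non-tumour liver.

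In HCC against vehicle liver, higher and lower members were 2 and 2 with a pseudocount of 64, with 24 separate arrays, and without HB replicates 4 and 5. They were 2 and 3 with the mean over kept probe sets and with the 2 groups alone, and 0 and 2 under median centring. Without HCC 1 and non-tumour 1 higher members were 2, and without the 5 arrays with Xist signal they were 0. In the latter setting Serpinb1a missed the threshold, and Serpina4-ps1 was called lower instead (-3.76, limma, adjusted p = 0.0326). The 2 vehicle arrays left there had Serpina4-ps1 intensities of 306 and 1029. The added calls in the 2 and 2 settings were Serpina12 higher and Serpinf1 lower. The stricter filter left 10855 genes and gave 0 lower members in HCC and in non-tumour liver against vehicle liver, because Serpinb1a was not tested there. Lower members in non-tumour liver were also 0 without the arrays with Xist signal. In HCC against non-tumour liver, higher members were 2 with a pseudocount of 64, with the mean over kept probe sets and without HB replicates 4 and 5, and 0 under quantile normalization, median centring, the 2 groups alone and without the arrays with Xist signal.

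Leaving out each replicate in turn gave 2 to 3 higher and 17 to 18 lower in HB against vehicle liver, 0 to 2 and 1 to 2 in HCC against vehicle liver, and 0 to 0 and 1 to 1 in non-tumour against vehicle liver. It gave 2 to 2 and 16 to 17 in HB against HCC, 2 to 3 and 15 to 17 in HB against non-tumour liver, and 0 to 2 and 0 to 0 in HCC against non-tumour liver. Apart from the genes named in these sentences, the cause of each shift was not tested.

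Same-numbered deviations correlated above 0.1 in 1 of 6 pairs of HCC with non-tumour liver (replicate 1, r = 0.504) and in none of the other group pairs. A low correlation between different tissues cannot show that they came from separate mice, so pairing by mouse could not be decided. With the replicate number as a block on 24 separate arrays, HCC against vehicle liver gave 2 higher and 2 lower members, and the other 5 comparisons kept their counts.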
